A study of Mus musculus with 12 samples.

Results

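The genes described here are interferon-stimulated genes, 39 genes chosen by symbol as known targets of interferon. A gene was measured by the probe set whose only gene symbol was that gene, and by the brightest of them on average where there were several. Of the 39 genes, 36 had such a probe set, among 22180 genes measured in that way, and 35 were bright enough to be tested, among 16667 genes tested. Rsad2 was measured but too dim to test, at log2 levels of 3.0 to 3.56. Dtx3l and Ifi27l2a lay only on probe sets that carry several symbols, and Ifi44 was not analysed here.

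RNA from 12 mouse samples was measured on 1 expression array each. By strain and cell type the labels give 5 groups, with 3 arrays each for ROR- and iNKT17 cells of BALB/c mice and 2 arrays each for ROR-, iNKT17 and gamma-delta 17 cells of B6 mice. Invariant natural killer T (iNKT) cells are T cells that recognise lipids, and the suffix 17 marks cells of the type that makes interleukin 17. The study set iNKT cells of B6 against those of BALB/c mice. The labels write BALB/c as BALBC and name no treatment, modified allele, age, organ or number of animals for any group, and the extraction protocol names frozen tissue where the labels name cells. Nothing in the labels says whether replicates came from separate animals, so the p-values below speak only of how far these samples spread, and that spread may be technical.

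Cells exposed to type I interferon signal through the receptor pair Ifnar1 and Ifnar2 and the kinases Jak1 and Tyk2 to a complex that holds Stat2 and Irf9 and binds the interferon-stimulated response element (ISRE) of its target genes. The products sense foreign nucleic acid, block its translation, degrade it, stop viruses from entering or leaving the cell, and restrain the signal. Interferon gamma, a product of type 1 lymphocytes, acts through its own receptor and the gamma-activated sequence (GAS) and induces many of the same genes. Many of them are also transcribed at lower levels without infection.

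The labelled cell types were checked against their markers, and 3 arrays stood apart from others of their group. Cd3e, a chain of the T cell receptor complex, lay between 11.09 and 11.75 on all 12 arrays. Il23r, a receptor of type 17 cells, lay between 9.53 and 10.29 on every iNKT17 and gamma-delta 17 array and between 2.93 and 3.67 on 4 of 5 ROR- arrays. On BALB/c ROR- replicate 2 it stood at 7.0, and the mean level of the 7 measured type 17 genes was 5.72 there against 4.06 and 4.28 on the other two arrays of that group. B6 gamma-delta 17 replicate 1 carried the neutrophil genes S100a8 at 9.30 and S100a9 at 9.0, where the highest value on any other array was 2.44 and 3.98. Its mean level over 8 neutrophil markers was 5.34 against 3.47 to 3.65 elsewhere, and over 6 immature thymocyte markers 5.60 against 3.91 to 4.41. BALB/c ROR- replicate 1 held 21 of the 35 tested members above both other arrays of its group, where 30.4% of all genes tested were so placed.

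The promoters of a few members are shown because the cell-type comparison turns on these genes and because members that moved together could be read for a shared element. Promoter windows ran from 250 bases before to 50 bases after each annotated start in RefSeq's GRCm38.p6 table, and 30 of the 39 genes matched by symbol. The ISRE core, GAAANNGAAA on either strand, occurred in at least 1 window of 12 of these 30 genes (40.0%) and of 3.99% of the 27025 genes in the table. The GAS motif, TTCNNNGAA, occurred in 7 of the 30 (23.3%) and in 9.55% of all genes. Printed are the 130 bases before the start, from 5′ to 3′ along the gene, with every match to the ISRE core in capitals.
Ifit1 (chr19:34640759-34640888, plus strand): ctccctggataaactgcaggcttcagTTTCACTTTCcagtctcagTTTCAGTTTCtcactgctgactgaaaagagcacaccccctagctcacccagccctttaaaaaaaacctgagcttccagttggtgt
Ifit1bl1, first start (chr19:34599428-34599557, minus strand): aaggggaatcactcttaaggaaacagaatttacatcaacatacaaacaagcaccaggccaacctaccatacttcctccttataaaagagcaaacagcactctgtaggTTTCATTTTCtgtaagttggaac
Ifit1bl1, other start (chr19:34601969-34602098, minus strand): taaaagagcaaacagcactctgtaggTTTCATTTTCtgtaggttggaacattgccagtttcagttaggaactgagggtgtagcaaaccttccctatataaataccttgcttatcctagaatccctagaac
Isg15 (chr4:156200819-156200948, minus strand): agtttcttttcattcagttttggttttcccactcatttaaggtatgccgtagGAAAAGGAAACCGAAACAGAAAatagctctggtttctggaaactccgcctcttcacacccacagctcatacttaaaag
Oas3 (chr5:120777660-120777789, minus strand): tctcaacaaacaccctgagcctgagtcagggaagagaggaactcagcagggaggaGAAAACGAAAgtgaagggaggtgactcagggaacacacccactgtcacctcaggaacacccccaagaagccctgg
Ifitm2 (chr7:140955962-140956091, minus strand): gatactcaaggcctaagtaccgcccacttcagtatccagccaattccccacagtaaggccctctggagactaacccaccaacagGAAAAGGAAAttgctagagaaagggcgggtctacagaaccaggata
Ifitm1 (chr7:140967946-140968075, plus strand): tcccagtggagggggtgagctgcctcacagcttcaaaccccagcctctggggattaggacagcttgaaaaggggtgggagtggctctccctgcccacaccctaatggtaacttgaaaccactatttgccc
Ifit1 carried 2 matches, and each of the 2 start sites of Ifit1bl1 carried 1. Isg15 carried 3 overlapping matches, written as 1 run of capitals. Oas3 and Ifitm2 carried 1 each, while Ifitm1, the neighbour of Ifitm2 on chromosome 7, carried none in the stretch shown or elsewhere in its window. A match describes letters only, and its absence says nothing of a factor. Dhx58, Zbp1, Ifi204, Oas2, Usp18, Parp9, Parp14, Rtp4 and Ifi27l2a are without a promoter here.

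**Figure D1:**
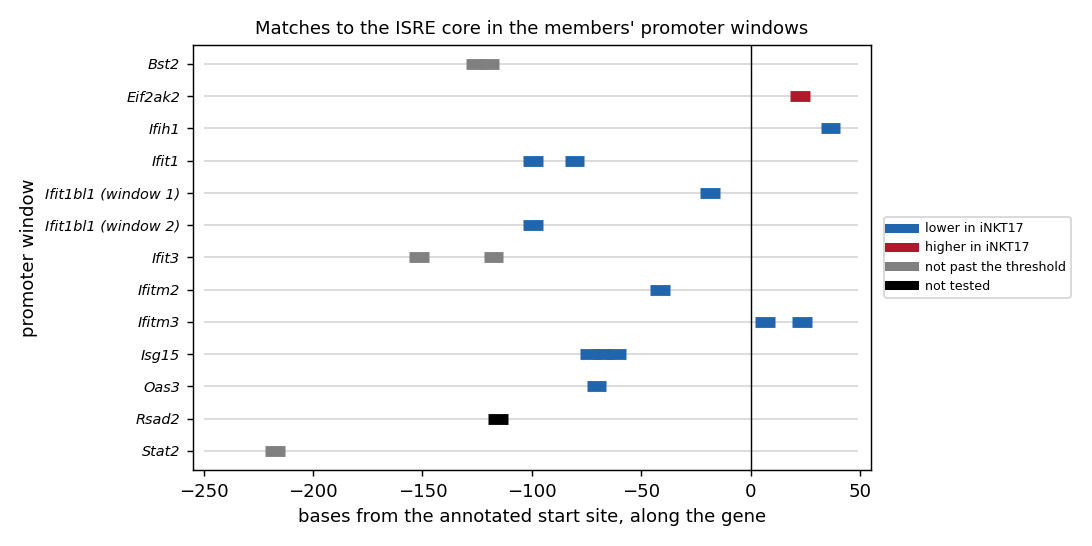
Position of each match to the ISRE core in the promoter windows of the 12 members that hold one, in bases from the annotated start site along the gene (x axis), coloured by the call in the comparison of iNKT17 with ROR- cells averaged over both strains. Matches of Isg15 begin at -78, -72 and -66 and those of Ifit1 at -104 and -85, counted from the start.

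iNKT17 cells carried less mRNA of many interferon-stimulated genes than ROR- cells of the same strain. Among the deepest falls were those of the Ifitm family, membrane proteins that block virus entry, where iNKT17 cells were 34.3-fold lower in Ifitm2, 17.1-fold lower in Ifitm3 and 7.79-fold lower in Ifitm1. Ifit1bl1, of the Ifit family, was 7.65-fold lower, with all its iNKT17 values below the dim level of 3.45, the 30th percentile of named probe sets, which is no measured background. Of the Ifit family 3 of 4 genes fell, as did the sensors Ifih1 and Zbp1, while Eif2ak2, the double-stranded RNA-activated kinase PKR, and Lgals3bp, a secreted galectin-binding glycoprotein, rose. Averaged over both strains, 17 of 35 tested members fell and 2 rose past an adjusted p of 0.05, where 5.81% of all genes tested fell and 6.49% rose. The members' median log2 difference was -0.45, against -0.0035 over all genes tested, and 29 of 35 differences were below 0. Differences are limma estimates of iNKT17 minus ROR- on the log2 scale with their standard error (SE), and p-values were adjusted by Benjamini and Hochberg over the 16667 genes. In bulk RNA, fewer cells of a kind and less RNA per cell cannot be told apart.

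**Figure D2:**
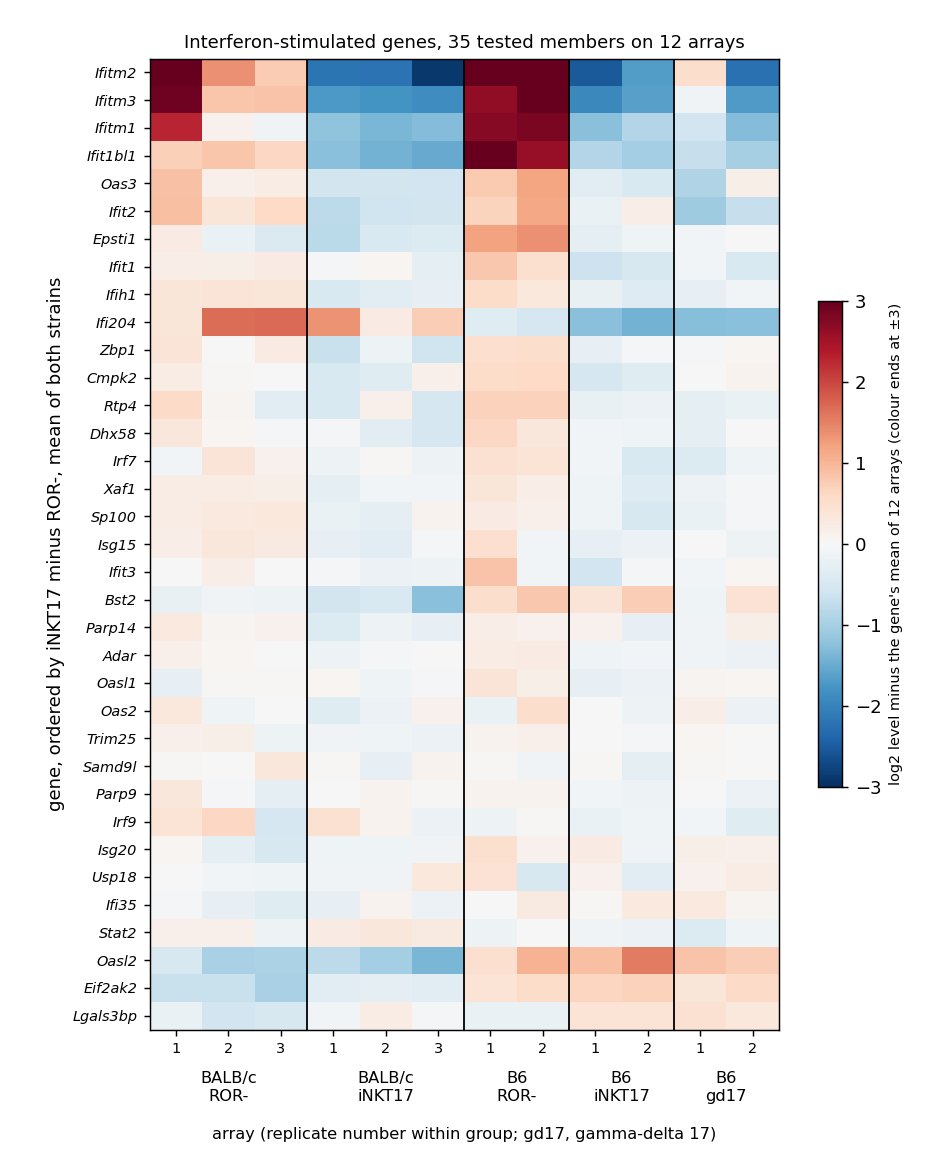
Each tested member (y axis, ordered by the cell-type difference) on each of the 12 arrays (x axis), coloured by its log2 level minus the gene's mean over the arrays, with the colour ending at 3 on either side. Ifitm2, Ifitm3, Ifitm1 and Ifit1bl1 are red on the ROR- arrays of both strains and blue on iNKT17 arrays, apart from Ifitm1 on BALB/c ROR- replicate 3, while Oasl2 and Eif2ak2 are blue on every BALB/c array.

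Among the membrane restriction factors, 3 of 4 fell and Bst2 did not pass. Ifitm2 stood at log2 levels of 10.13, 8.0 and 7.39 on the BALB/c ROR- arrays and at 4.46, 4.41 and 3.75 on the BALB/c iNKT17 arrays. In B6 it stood at 10.10 and 10.76 in ROR- cells and at 4.12 and 4.96 in iNKT17 cells. The groups were far apart in both strains, with every ROR- array above every iNKT17 array, and the difference was -5.10 ± 0.57 (SE, adjusted p = 9.17e-05). Ifitm3 stood at 9.32, 7.25 and 7.26 against 4.68, 4.61 and 4.54 in BALB/c and at 9.07 and 9.88 against 4.46 and 4.77 in B6. The 5 iNKT17 arrays lay within a narrow range and the ROR- arrays did not. Its difference was -4.09 ± 0.41 (adjusted p = 3.73e-05). Ifitm1 stood at 7.21, 5.05 and 4.82 against 3.72, 3.55 and 3.62 in BALB/c and at 7.66 and 7.76 against 3.66 and 4.05 in B6, a difference of -2.96 ± 0.38 (adjusted p = 0.00025). Its iNKT17 values came close to 3.45, the level below which a gene counts as dim. Bst2, the tetherin that holds budding virions at the cell surface, differed by -0.36 ± 0.17 (adjusted p = 0.23).

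The Ifitm genes were also those in which BALB/c ROR- replicate 1 stood highest above the mean of the other arrays of its group, by 2.43 in Ifitm2, 2.28 in Ifitm1 and 2.06 in Ifitm3. RefSeq places Ifitm2, Ifitm1 and Ifitm3 next to each other on chromosome 7 with no protein-coding gene between them. Within BALB/c the difference of Ifitm2 was -4.30 ± 0.72, that of Ifitm3 -3.33 ± 0.52 and that of Ifitm1 -2.07 ± 0.48. Without replicate 1 they were -3.49, -2.64 and -1.31, and each still passed. The call of Ifitm1 within BALB/c was lost without any 1 of the 3 BALB/c iNKT17 arrays, at adjusted p = 0.0591, 0.0668 and 0.0753, with trended, robust moderation (0.066) and with only the groups compared in the fit (0.072).

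Of the 4 Ifit genes, whose proteins bind foreign RNA, 3 fell and Ifit3 did not pass. Ifit1bl1 stood at 3.99, 4.09 and 3.90 on the BALB/c ROR- arrays and at 6.25 and 5.89 on the B6 ROR- arrays. It stood at 2.0, 1.84 and 1.77 in BALB/c and 2.39 and 2.25 in B6 iNKT17 cells, all below the dim level. The groups did not overlap, and the difference was -2.94 ± 0.11 (adjusted p = 3.57e-08), of uncertain size because 1 side is dim. Ifit2 stood at 5.40, 4.85 and 5.10 against 3.71, 3.91 and 3.95 in BALB/c and at 5.15 and 5.66 against 4.29 and 4.69 in B6, a difference of -1.09 ± 0.15 (adjusted p = 0.00036). Ifit1 stood at 4.75, 4.71 and 4.79 against 4.47, 4.59 and 4.27 in BALB/c and at 5.35 and 5.03 against 3.93 and 4.06 in B6. Its groups did not overlap in either strain, with a narrow gap in BALB/c and a wide one in B6, and the difference was -0.75 ± 0.11 (adjusted p = 0.00058). Ifit3 differed by -0.43 ± 0.17 (adjusted p = 0.13), and by -0.66 (adjusted p = 0.00839) without B6 ROR- replicate 2. Ifit2, Ifit3 and Ifit1bl1 lie in a row on chromosome 19, with 2 protein-coding genes between Ifit1bl1 and Ifit1.

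Among the 10 sensors and RNA-binding effectors, 4 fell and 1 rose. Ifih1, the sensor of long double-stranded RNA also called MDA5, stood at 5.67, 5.71 and 5.68 against 4.86, 4.98 and 5.06 in BALB/c and at 5.87 and 5.62 against 5.10 and 4.92 in B6. Every ROR- array lay above every iNKT17 array of either strain, and the difference was -0.73 ± 0.09 (adjusted p = 0.00016). Zbp1, a sensor of Z-form nucleic acid, stood at 8.97, 8.58 and 8.83 against 7.91, 8.42 and 7.97 in BALB/c and at 9.09 and 9.10 against 8.33 and 8.51 in B6, a difference of -0.68 ± 0.12 (adjusted p = 0.0022). Oas3, a synthetase of the oligoadenylate messenger that activates RNase L, stood at 6.77, 6.05 and 6.13 against 5.35, 5.35 and 5.32 in BALB/c and at 6.69 and 7.08 against 5.57 and 5.44 in B6. Its groups did not overlap and its difference was -1.18 ± 0.20 (adjusted p = 0.0020). Dhx58, which encodes the Ifih1-related protein LGP2, differed by -0.50 ± 0.12 (adjusted p = 0.017). Eif2ak2 stood at 5.06, 5.06 and 4.76 against 5.42, 5.47 and 5.39 in BALB/c and at 6.14 and 6.28 against 6.39 and 6.43 in B6. Both strains had the higher values in iNKT17 cells, and the difference was 0.33 ± 0.09 (adjusted p = 0.036).

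The other 5 of this group did not pass. Adar, which edits adenosine in double-stranded RNA, differed by -0.24 ± 0.08 (adjusted p = 0.063), and Ifi204, a DNA sensor, by -0.68 ± 0.27 (adjusted p = 0.13). Ifi204 passed without BALB/c ROR- replicate 1, at -0.91 (adjusted p = 0.0081). Oas2 differed by -0.23 ± 0.16, and the oligoadenylate synthetase-like genes Oasl1 and Oasl2 by -0.23 ± 0.09 and 0.11 ± 0.18. Neighbours on chromosome 5 thus had different calls, since Oas2 and Oas3 adjoin each other there.

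Of the members that carry the signal or act in transcription, Stat2, Irf9, Irf7 and Ifi35, 1 of 4 passed. This was Irf7, a transcription factor that amplifies type I interferon. It stood at 6.33, 6.80 and 6.54 against 6.26, 6.44 and 6.24 in BALB/c and at 6.86 and 6.82 against 6.32 and 5.95 in B6, a difference of -0.47 ± 0.12 (adjusted p = 0.021). Its groups overlapped in BALB/c and not in B6. Stat2 differed by 0.08 ± 0.10, Irf9 by -0.07 ± 0.20 and Ifi35 by 0.07 ± 0.11. Stat2 and Irf9 are subunits of the complex that binds the ISRE.

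Of the remaining members, 6 fell, 1 rose and 6 did not pass. Cmpk2, a mitochondrial nucleotide kinase, differed by -0.66 ± 0.12 (adjusted p = 0.0031), and Isg20, an RNA exonuclease, by -0.05 ± 0.12. Isg15, the ubiquitin-like protein attached to other proteins during the response, stood at 4.40, 4.52 and 4.46 against 3.95, 3.85 and 4.14 in BALB/c and at 4.70 and 4.11 against 3.96 and 4.02 in B6, a difference of -0.45 ± 0.12 (adjusted p = 0.026). Its ROR- arrays all lay above the iNKT17 arrays of their strain, in B6 by a margin of less than the spread between replicates. The enzymes that work with Isg15, its protease Usp18 (0.01 ± 0.17) and the ligase Trim25 (-0.17 ± 0.09), did not pass, nor did the ADP-ribosyltransferase family members Parp9 (-0.08 ± 0.12) and Parp14 (-0.32 ± 0.11, adjusted p = 0.073). Epsti1 stood at 7.88, 7.44 and 7.21 against 6.82, 7.19 and 7.23 in BALB/c and at 8.85 and 9.0 against 7.37 and 7.50 in B6, a difference of -0.96 ± 0.13 (adjusted p = 0.00044). The groups overlapped in BALB/c and lay far apart in B6. Rtp4 differed by -0.63 ± 0.17 (adjusted p = 0.032), Xaf1, a partner of an inhibitor of cell death, by -0.45 ± 0.09 (adjusted p = 0.0056), Sp100, a protein of nuclear bodies, by -0.45 ± 0.10 (adjusted p = 0.013) and Samd9l by -0.12 ± 0.11. Lgals3bp stood at 10.44, 10.06 and 10.15 against 10.57, 10.87 and 10.58 in BALB/c and at 10.43 and 10.44 against 11.04 and 11.04 in B6, higher on each iNKT17 array, by 0.53 ± 0.10 (adjusted p = 0.0045). All 4 probe sets of Sp100 and both of Lgals3bp had group means that differed in the same direction as the one used, in both strains.

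Of these 19 calls, 13 held in every setting in which the gene was tested. Those of Dhx58, Eif2ak2, Irf7, Isg15, Rtp4 and Sp100 were each lost on leaving out some single arrays, with adjusted p up to 0.094, 0.15, 0.11, 0.12, 0.10 and 0.074. B6 ROR- replicate 1 ended all 6 of these calls, and without it 12 members fell. B6 iNKT17 replicate 2 also ended all 6 and also left 12. Other single arrays that ended a call were B6 iNKT17 replicate 1 for Dhx58, Eif2ak2, Isg15 and Rtp4, B6 ROR- replicate 2 for Eif2ak2, Irf7 and Rtp4, and BALB/c ROR- replicate 2 for Isg15 and Rtp4. In BALB/c iNKT17 cells they were replicate 1 for Eif2ak2, Isg15 and Rtp4, replicate 2 for Eif2ak2 and Isg15, and replicate 3 for Eif2ak2, Irf7 and Rtp4. An omission also leaves fewer arrays in the fit, and in B6 a single one in its group, so a lost call need not mark that array. Centring each array on its median ended the calls of Eif2ak2 (adjusted p = 0.051) and Rtp4 (adjusted p = 0.058). Trended, robust moderation ended that of Eif2ak2 (0.0504), and leaving out BALB/c ROR- replicate 2 with gamma-delta 17 replicate 1 ended those of Isg15 (0.068) and Rtp4 (0.075). Parp14 passed without B6 iNKT17 replicate 1, at -0.41 (adjusted p = 0.042), and Ifit3 without B6 ROR- replicate 2, at -0.66 (adjusted p = 0.0084).

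Within each strain the same direction prevailed. In BALB/c, 8 of 35 members fell and 1 rose, where 2.91% of all genes tested fell and 4.06% rose, and in B6 12 fell and 1 rose, where 3.16% fell and 2.83% rose. These comparisons share no array. Ifih1, Oas3, Ifit1bl1, Ifit2, Ifitm1, Ifitm2 and Ifitm3 fell in both, which is 87.5% of the members that fell in BALB/c and 58.3% of those that fell in B6. Zbp1 (-0.69 ± 0.15, adjusted p = 0.015) passed in BALB/c and not in B6, where it differed by -0.67 ± 0.18 (adjusted p = 0.056), and the difference between strains was -0.02 ± 0.24 (adjusted p = 0.999). Ifit1 (-1.20 ± 0.17), Epsti1 (-1.49 ± 0.21), Cmpk2 (-1.01 ± 0.19), Irf7 (-0.71 ± 0.18) and Xaf1 (-0.54 ± 0.14) passed in B6 and differed by -0.30, -0.43, -0.32, -0.24 and -0.36 in BALB/c. The difference was below 0 in both strains for 26 members, above 0 in both for 3 and of opposite sign for Isg20, Oasl1, Oasl2, Parp9, Stat2 and Usp18.

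The arrays themselves show the same split. In BALB/c, 16 of 35 members had every iNKT17 array below every ROR- array and 3 had every one above, where 10.1% and 12.1% of all genes tested were so placed. In B6, with fewer arrays, the counts were 22 and 2, where the shares of all genes were 23.9% and 22.5%. Averaged over the 36 measured members, the log2 level was 6.14 to 6.50 on BALB/c ROR- arrays and 5.71 to 5.76 on BALB/c iNKT17 arrays. It was 6.73 and 6.74 on B6 ROR- arrays, 5.82 and 5.86 on B6 iNKT17 arrays and 5.98 and 5.89 on the gamma-delta 17 arrays. In this mean no ROR- array overlapped with the other cell types, but the Ifitm genes and Ifit1bl1 weigh most in it. By role, BALB/c ROR- and iNKT17 arrays overlapped for the signal genes (6.85 to 7.30 against 7.01 to 7.22). They also did for the Isg15 system, the ADP-ribosyltransferases and the nucleotide and RNA enzymes. They did not for the sensors, the Ifit genes, the membrane factors and the other members.

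**Figure D3:**
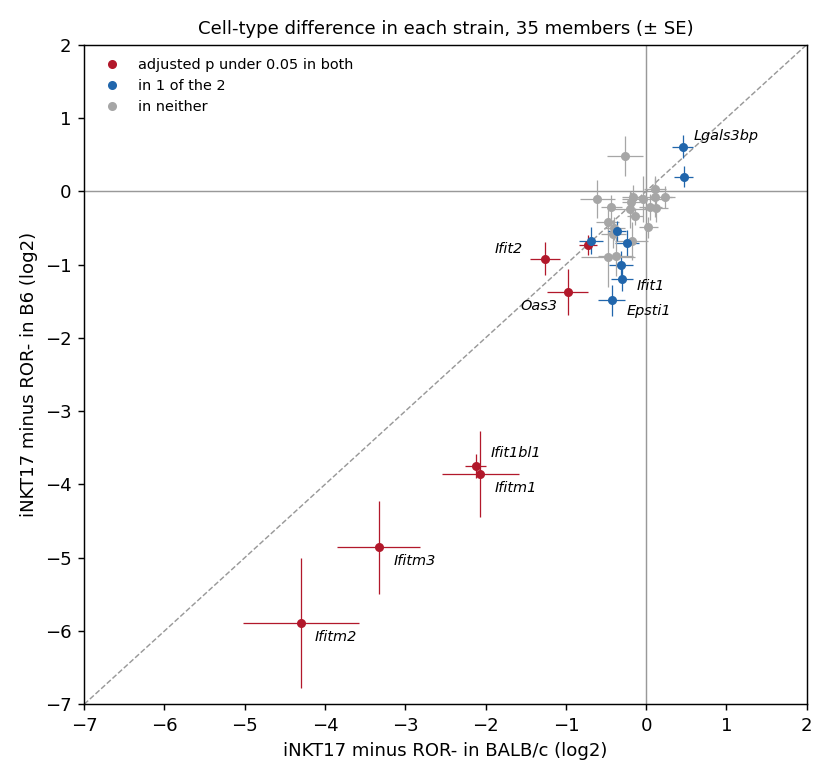
Difference of iNKT17 minus ROR- in BALB/c (x axis) and in B6 (y axis), log2, for the 35 tested members, with bars of 1 SE and a dashed line where both are equal. Ifitm2, Ifitm3, Ifitm1 and Ifit1bl1 lie far below 0 in both strains, at -4.30, -3.33, -2.07 and -2.12 in BALB/c and -5.90, -4.86, -3.85 and -3.75 in B6.

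The size of the difference was tested between strains for each member. Its absolute size was larger in B6 for 24 of 35 members, and the share of all genes was not counted. B6, with fewer arrays a group, has the wider standard errors. Of all genes tested, 0.0600% passed the test of the difference itself with a higher value (BALB/c minus B6) and 0.0240% with a lower one. Of the members, 1 passed with a higher value and 0 with a lower one. This was Ifit1bl1, which fell by 3.75 ± 0.16 in B6 and by 2.12 ± 0.13 in BALB/c, a difference of 1.62 ± 0.21 (adjusted p = 0.025). The iNKT17 values of both strains were below the dim level, so the size of either fall is uncertain. The 2 strains differed mainly in their ROR- cells, so the call does not show that the fall depends on strain. This call was lost on leaving out any of 8 single arrays, namely replicates 1 and 3 of both BALB/c groups and replicates 1 and 2 of both the ROR- and the iNKT17 group of B6, with the highest adjusted p, 0.15 for a value of 1.44, on omitting the first of the B6 ROR- arrays. The strain differences of Epsti1 (1.06 ± 0.27, adjusted p = 0.45), Ifit1 (0.89 ± 0.22, adjusted p = 0.37) and Ifitm1 (1.79 ± 0.76, adjusted p = 0.999) did not pass. That of Ifitm1 passed without BALB/c ROR- replicate 1, at 2.54 (adjusted p = 0.029).

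Several calls within a strain were lost on leaving out single arrays, and in most of these fits fewer of all genes passed as well. An array left out of a group outside the comparison left the difference as it was and moved only its p. Oas3 in BALB/c stayed at -0.98 without either B6 ROR- array. Leaving out a B6 array left a single array in its group, so a call lost there need not mark that array. In BALB/c the rise of Eif2ak2 (0.47 ± 0.12, adjusted p = 0.035) was lost without BALB/c ROR- replicate 3 or any iNKT17 array of either strain (adjusted p up to 0.11). The fall of Zbp1 was lost without replicate 1 or 3 of either BALB/c group (up to 0.075). That of Oas3 (-0.98 ± 0.26, adjusted p = 0.040) did not hold on omitting any iNKT17 array, any B6 ROR- array, or BALB/c ROR- array 1 or 3, with a value of -0.75 on omitting array 1 (adjusted p = 0.12). Without iNKT17 replicate 1, 5 members fell in BALB/c, and 850 of all genes passed, against 1161 with every array in the fit. Cmpk2 passed in BALB/c without iNKT17 replicate 3 (-0.50, adjusted p = 0.048), Lgals3bp without ROR- replicate 1 (0.57, adjusted p = 0.025) and Isg15 without either B6 ROR- array (-0.48, adjusted p = 0.031).

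In B6, Ifih1 was lost without ROR- replicate 1 or iNKT17 replicate 2 (adjusted p up to 0.091), Cmpk2 without ROR- replicate 2 or iNKT17 replicate 1 (up to 0.060) and Oas3 without any of these 4 arrays (up to 0.15). Ifit2 was lost without either B6 iNKT17 array, B6 ROR- replicate 2 or BALB/c iNKT17 replicate 3 (up to 0.25). Irf7 was lost without either B6 ROR- array, B6 iNKT17 replicate 2, BALB/c ROR- replicate 3 or any BALB/c iNKT17 array (up to 0.35). Xaf1 (up to 0.34) and Lgals3bp (up to 0.22) were lost without any single B6 array and without some BALB/c arrays, Xaf1 without ROR- replicates 1 or 2 or iNKT17 replicates 2 or 3, and Lgals3bp without iNKT17 replicates 1 or 3. Without iNKT17 replicate 2, 7 members fell in B6. Ifit3 (-1.14, adjusted p = 0.016) and Isg15 (-0.71, adjusted p = 0.047) passed in B6 without ROR- replicate 2. Zbp1 passed there without BALB/c replicate 2 of either cell type, and Rtp4 without BALB/c ROR- replicate 1 or 3 or iNKT17 replicate 2.

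Settings other than a left-out array ended some of these calls too. With only the groups compared in the fit, Ifih1 (adjusted p = 0.055), Ifit2 (0.090), Irf7 (0.080), Xaf1 (0.14) and Lgals3bp (0.056) were lost in B6, and Eif2ak2 (0.089) and Zbp1 (0.058) in BALB/c. With each array centred on its median, Ifit2 (0.062), Irf7 (0.056) and Xaf1 (0.051) were lost in B6 and Oas3 (0.063) and Eif2ak2 (0.0502) in BALB/c. Quantile normalization ended the B6 calls of Ifit2 (0.056) and Irf7 (0.057). With the replicate number as a block, Irf7 (0.070), Xaf1 (0.083) and Lgals3bp (0.074) were lost in B6 and Oas3 (0.066) in BALB/c. Averaging probe sets ended the B6 call of Lgals3bp (0.10), and leaving out BALB/c ROR- replicate 2 together with gamma-delta 17 replicate 1 ended those of Xaf1 (0.075) and Lgals3bp (0.057). The falls of Ifit1, Epsti1, Ifit1bl1 and the 3 Ifitm genes in B6, and those of Ifih1, Ifit2, Ifit1bl1, Ifitm2 and Ifitm3 in BALB/c, held in every setting in which the gene was tested.

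Some markers of several cell types moved with these genes, where 5.81% of all genes tested fell and 6.49% rose. All 7 type 1 lymphocyte markers fell in iNKT17 cells, and their mean level was 8.87 to 10.04 on ROR- arrays against 5.21 to 5.72 on iNKT17 arrays. Of the plasmacytoid dendritic cell markers, from cells that make much type I interferon, 2 of 6 tested (Ccr9 and Pacsin1) fell, and the mean level of all 9 measured was 4.01 to 4.15 on ROR- arrays against 3.74 to 3.77 on iNKT17 arrays. Siglech, which defines those cells, lay between 3.87 and 4.44 on all 12 arrays. Of the macrophage and monocyte markers 1 of 8 tested (Ly6c2, at -5.44) fell, and the median difference of the 8 was -0.14. The mean of the 10 measured was 4.40 to 4.76 against 3.87 to 4.12, and Ly6c2 weighs most in that gap. None of the 6 tested neutrophil markers passed by limma, and 0 had an unadjusted p under 0.05. Of the B cell markers 2 of 5 tested (Ighm and Cd79a) fell and 1 (Cd79b) rose, with a mean level of 4.24 to 4.54 on ROR- and 4.51 to 4.54 on iNKT17 arrays. Of the conventional NK and CD8 cell markers 2 of 7 tested (Eomes and Ncr1) fell, with means of 5.50 to 5.71 and 5.47 to 5.83. Of the epithelial and stromal markers 1 of 9 (Cdh1) fell. The 6 markers listed for the iNKT lineage were Zbtb16, Cd3e, Cd3d, Cd3g, Cd5 and Cd4. Of these 2 (Cd4 at -3.81 ± 0.12 and Cd5 at -1.31 ± 0.11) fell, while Zbtb16 and the Cd3 genes did not pass. The mean of the 6 was 9.88 to 10.27 on ROR- arrays and 8.88 to 9.32 on iNKT17 arrays. The marker genes in parentheses were named after their values were seen. The relation of any of these markers to the members' differences was not tested.

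**Figure D4:**
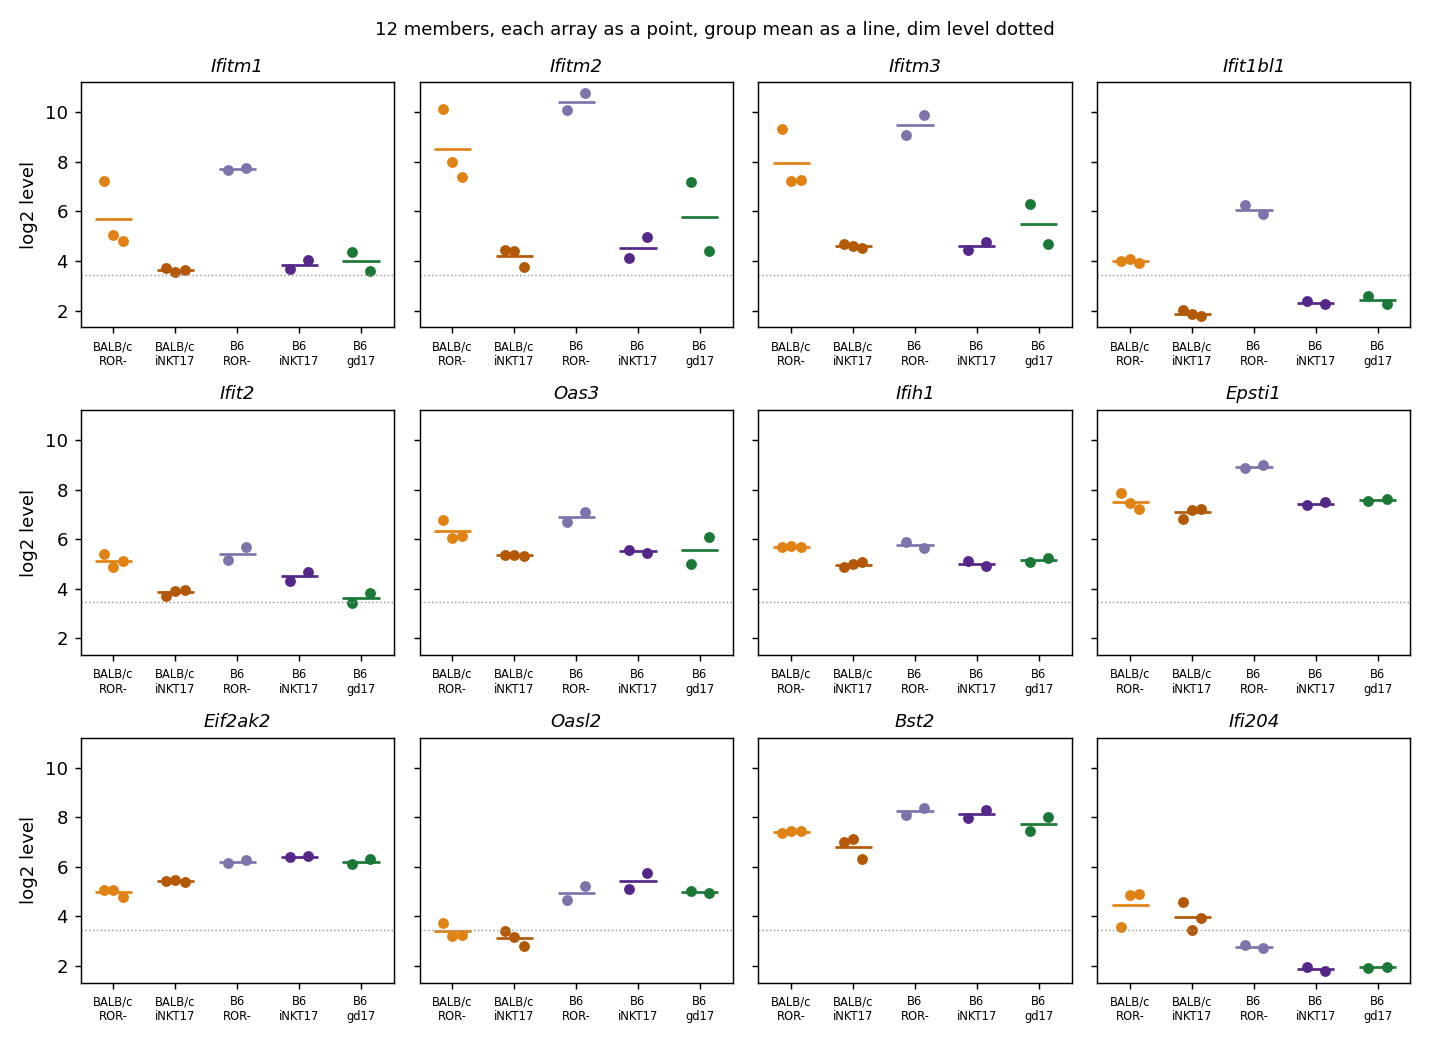
Log2 level of 12 members on each array, with 1 point per array, a line at each group mean and a dotted line at the dim level of 3.45. The Ifitm genes, Ifit1bl1, Ifit2, Oas3, Ifih1 and Epsti1 are arranged above Eif2ak2, Oasl2, Bst2 and Ifi204, whose levels part by strain.

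BALB/c and B6 differed in 6 members, of which Ifit1bl1, Eif2ak2 and Epsti1 also passed between iNKT17 and ROR- cells. Averaged over iNKT17 and ROR- cells, BALB/c was 3.81-fold lower in Oasl2, 2.40-fold lower in Ifit1bl1, 2.16-fold lower in Eif2ak2, 2.11-fold lower in Bst2 and 1.85-fold lower in Epsti1, and 3.72-fold higher in Ifi204. These 5 lower and 1 higher of 35 members compare with 2.79% of all genes tested lower and 1.79% higher in BALB/c. All 6 calls held in every setting in which the gene was tested. The 1 higher, Ifi204, was below the dim level in B6 and bright enough to be tested only through its BALB/c arrays. Whether the probes match both strains equally was not tested.

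Oasl2 and Eif2ak2 were low in BALB/c in both cell types. Oasl2 stood at 3.71, 3.20 and 3.24 in BALB/c ROR- cells and 3.39, 3.17 and 2.80 in BALB/c iNKT17 cells. In B6 it stood at 4.66 and 5.23 in ROR- cells, 5.09 and 5.75 in iNKT17 cells and 5.03 and 4.92 in gamma-delta 17 cells. No BALB/c array overlapped with a B6 array, and most BALB/c values were below the dim level, with a strain difference (BALB/c minus B6) of -1.93 ± 0.18 (adjusted p = 0.0001). The adjoining gene Oasl1 differed by -0.08 ± 0.09. Eif2ak2 had its highest BALB/c value at 5.47 and its lowest B6 value at 6.09, which was in gamma-delta 17 cells, with a strain difference of -1.11 ± 0.09 (adjusted p = 4.59e-05). Bst2 stood at 7.35, 7.45 and 7.42 in BALB/c ROR- cells and 7.01, 7.10 and 6.30 in BALB/c iNKT17 cells, against 8.09 and 8.38, and 7.95 and 8.30, in the same cells of B6, a difference of -1.08 ± 0.17 (adjusted p = 0.0038) that in ROR- cells alone was -0.83 ± 0.24 (adjusted p = 0.16). The gamma-delta 17 arrays, at 7.44 and 8.0, reached down into the BALB/c range.

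Ifi204 went the other way. It stood at 3.57, 4.87 and 4.90 in BALB/c ROR- cells and 4.56, 3.44 and 3.93 in BALB/c iNKT17 cells, and between 1.79 and 2.83 on all 6 B6 arrays, below the dim level. Only the BALB/c arrays made it bright enough to be tested, so its call leans on the group where it is high. The difference was 1.89 ± 0.27 (adjusted p = 0.0019), of uncertain size. Aim2, another DNA sensor of the same family with 6 protein-coding genes between it and Ifi204 on chromosome 1, was also higher in BALB/c, by 1.49 ± 0.14 (adjusted p = 0.00013).

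Epsti1 and Ifit1bl1 differed by strain in ROR- cells and not past the threshold in iNKT17 cells. In ROR- cells BALB/c minus B6 was -1.42 ± 0.19 in Epsti1 (adjusted p = 0.0029) and -2.07 ± 0.15 in Ifit1bl1 (adjusted p = 4.2e-05), against -0.36 ± 0.19 and -0.45 ± 0.15 in iNKT17 cells. The strain difference differed between cell types for Ifit1bl1, by the test given above, and not past the threshold for Epsti1. For Ifit1bl1 all iNKT17 values were below the dim level, and only its ROR- arrays made it bright enough to be tested. A strain difference in iNKT17 cells cannot be sized at such levels, so the test does not show that it depends on cell type. With Eif2ak2 (-1.25 ± 0.13) and Oasl2 (-1.56 ± 0.25), 4 members were lower and 0 higher in BALB/c ROR- cells, where 0.840% and 0.378% of all genes tested were. The members' median was -0.30 against 0.0090 over all genes, with 28 of 35 below 0. In iNKT17 cells, Eif2ak2 (-0.98 ± 0.13), Oasl2 (-2.30 ± 0.25) and Bst2 (-1.32 ± 0.24) were lower and Ifi204 (2.11 ± 0.38) was higher in BALB/c, where 0.810% and 0.672% of all genes were, and the members' median was -0.05. Eif2ak2 and Oasl2 passed in both cell types, and no B6 or BALB/c array is shared between them.

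In ROR- cells BALB/c replicate 1 lay nearest to B6 in the Ifitm genes, and these did not pass with it in the fit. Ifitm1 differed by -2.01 ± 0.54 (adjusted p = 0.12), Ifitm3 by -1.53 ± 0.58 and Ifitm2 by -1.93 ± 0.81. Without replicate 1 Ifitm1 differed by -2.77 (adjusted p = 0.00026), Ifitm3 by -2.22 (adjusted p = 0.026) and Ifi204 by 2.12 (adjusted p = 0.0041), which made 6 lower and 1 higher. Averaged over cell types, 8 were lower without it, with Ifitm1 (-1.50), Ifitm3 (-1.11) and Isg20 (-0.44) added. Without B6 ROR- replicate 2 the calls of Oasl2 (-1.28, adjusted p = 0.18) and Epsti1 (-1.34, adjusted p = 0.061) in ROR- cells were lost, which left 2. The call of Oasl2 there was also lost without BALB/c ROR- replicate 2 and gamma-delta 17 replicate 1 together (-1.47, adjusted p = 0.059). In iNKT17 cells the call of Bst2 was lost without B6 iNKT17 replicate 1 or 2 (adjusted p = 0.062 and 0.27) or with only the groups compared (0.084), and that of Ifi204 without either of these or BALB/c iNKT17 replicate 1 or 3 (adjusted p up to 0.20) and with the replicate number as a block (0.061).

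By arrays alone, 16 members had every BALB/c ROR- array below every B6 ROR- array and 1 had every one above, where 12.5% and 13.8% of all genes tested were so placed. In iNKT17 cells the counts were 9 and 5, against 13.8% and 17.8% of all genes.

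**Figure D5:**
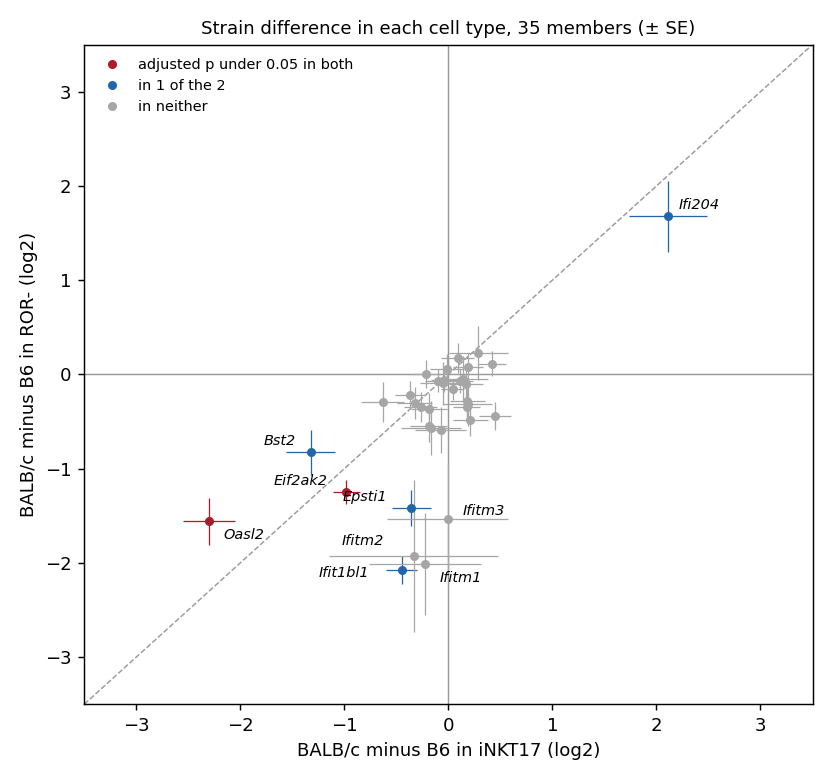
Difference of BALB/c minus B6 in iNKT17 cells (x axis) and in ROR- cells (y axis), log2, for the 35 tested members, with bars of 1 SE and a dashed line where both are equal. Eif2ak2 and Oasl2 lie low on both axes, Ifi204 lies high on both, and Epsti1, Ifit1bl1 and the Ifitm genes lie low on the ROR- axis and near 0 on the iNKT17 axis, at -0.36, -0.45, -0.23, -0.33 and -0.01 for Epsti1, Ifit1bl1, Ifitm1, Ifitm2 and Ifitm3.

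In gamma-delta 17 cells of B6, 3 of 4 Ifit genes and the 3 Ifitm genes were lower than in ROR- cells. Set against B6 ROR- cells, 10 of 35 members fell and 0 rose, where 3.41% and 2.61% of all genes tested did. These were Epsti1 (-1.34 ± 0.21), Ifih1 (-0.60 ± 0.14), Ifit1 (-0.92 ± 0.17), Ifit1bl1 (-3.65 ± 0.16), Ifit2 (-1.78 ± 0.23), Ifitm1 (-3.72 ± 0.59), Ifitm2 (-4.65 ± 0.89), Ifitm3 (-3.97 ± 0.64), Irf7 (-0.71 ± 0.18) and Oas3 (-1.35 ± 0.31). The median over members was -0.39. This comparison shares its ROR- arrays with that of iNKT17 and ROR- cells in B6, in which the same 10 members had differences of -1.49, -0.74, -1.20, -3.75, -0.92, -3.85, -5.90, -4.86, -0.71 and -1.38. By arrays alone, 22 members had both gamma-delta 17 arrays below both ROR- arrays and 1 had both above, where 24.7% and 23.8% of all genes were so placed.

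The 2 gamma-delta 17 arrays differed in the Ifitm genes. Ifitm2 stood at 7.17 on replicate 1 and 4.39 on replicate 2, Ifitm3 at 6.31 and 4.70 and Ifitm1 at 4.36 and 3.61. Replicate 1 is the array with high neutrophil and immature thymocyte markers, and its type 1 lymphocyte markers averaged 7.07 against 5.66. The part of such cells was not tested. Without replicate 1 the difference from ROR- cells was -6.04 in Ifitm2, -4.78 in Ifitm3 and -4.09 in Ifitm1, and without replicate 2 it was -3.26, -3.17 and -3.35. Without replicate 1, 7 members fell, with Ifih1 (adjusted p = 0.15), Oas3 (0.18) and Irf7 (0.27) lost. Without replicate 2, 6 fell, with Ifih1 (adjusted p = 0.059), Irf7 (0.063), Ifit1 (0.065) and Ifitm2 (0.070) lost. Leaving out B6 ROR- replicate 1 left 6, with Ifih1, Oas3, Irf7 and Ifit1 lost, and leaving out its replicate 2 left 7, with Oas3, Irf7 and Ifitm2 lost (adjusted p up to 0.19). Irf7 was also lost without BALB/c ROR- replicate 3 or any BALB/c iNKT17 array, and Rtp4 and Lgals3bp passed without some BALB/c arrays (-0.93 and 0.59). With only the groups compared in the fit, Ifih1 (0.11), Ifit1 (0.051), Irf7 (0.072) and Oas3 (0.094) were lost, and Irf7 was lost with quantile normalization (0.051) and with the replicate block (0.068). Oas3 stood at 5.0 on replicate 1 and 6.08 on replicate 2, the opposite order to the Ifitm genes.

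Between iNKT17 and gamma-delta 17 cells of B6, 0 members passed in either direction by limma, where 0.0600% of all genes tested were higher and 0.108% lower in iNKT17 cells. At an unadjusted p under 0.05 there were 2, and the share of all genes at that level was not counted. Ifitm2 differed by -1.24 ± 0.89, Ifitm3 by -0.88 ± 0.64 and Ifit2 by 0.87 ± 0.23 (adjusted p = 0.26). Without gamma-delta 17 replicate 1 these values were 0.15, -0.08 and 0.68, so that the sign of Ifitm2 turned. Ifit2 stood at 4.29 and 4.69 in iNKT17 cells and at 3.44 and 3.81 in gamma-delta 17 cells, without overlap. The median over members was -0.10. Both iNKT17 arrays lay above both gamma-delta 17 arrays for 3 members and below for 6, where 20.3% and 20.7% of all genes were so placed. With 2 arrays a side, a p that misses the threshold does not show that levels were alike.

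Other genes of the pathway were read from lists by role in the comparison of iNKT17 with ROR- cells over both strains. In it 5.81% of all genes tested fell and 6.49% rose. Of the interferon receptor and JAK-STAT genes 5 of 10 tested fell and 0 rose. Ifnar1, a chain of the type I receptor, differed by -0.85 ± 0.13 (adjusted p = 0.00088), Il10rb, shared by the receptors of interferon lambda and interleukin 10, by -0.83 ± 0.10 (adjusted p = 0.00015), Ifngr1, the ligand-binding chain of the interferon gamma receptor, by -0.55 ± 0.13 (adjusted p = 0.015), and the kinase Jak2 by -0.53 ± 0.09 (adjusted p = 0.0020). Ifnar1 stood at 8.04, 8.05 and 8.04 against 7.47, 6.97 and 7.44 in BALB/c and at 8.27 and 8.17 against 7.35 and 7.19 in B6, without overlap. The other chains did not pass, with -0.32 ± 0.10 for Ifnar2 (adjusted p = 0.053) and 0.40 ± 0.16 for Ifngr2 (adjusted p = 0.15). Ifnar2, Il10rb, Ifnar1 and Ifngr2 adjoin each other on chromosome 16, with differences of both signs.

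Of the ligand genes 2 of 12 tested fell, where 5.81% of all genes tested did. Ifng, which encodes interferon gamma, stood at 8.19, 8.82 and 5.54 against 3.29, 4.18 and 3.52 in BALB/c and at 6.57 and 8.66 against 3.89 and 4.06 in B6, a difference of -3.75 ± 0.58 (adjusted p = 0.00098). Its ROR- arrays were widely spread and all above the iNKT17 arrays. Ifnk differed by -0.45 ± 0.12 (adjusted p = 0.023). Ifnb1, at 2.47 to 2.75 on all arrays, was too dim to test. Of the genes that sense nucleic acid upstream of interferon, the kinase Ikbke fell by 0.89 ± 0.11 and the adaptor Ticam1 rose by 0.50 ± 0.14, with 13 tested. Of 7 interferon regulatory factors outside the members only Irf4 fell (-0.66 ± 0.16), and Irf1 differed by -0.62 ± 0.25 (adjusted p = 0.16). Of 9 negative regulators 3 fell, namely Socs3 (-0.91 ± 0.22), the nucleotide hydrolase Samhd1 (-0.89 ± 0.10) and the phosphatase Ptpn6 (-0.63 ± 0.18).

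Of the interferon-stimulated genes outside the 39, 8 of 40 tested fell and 2 rose, where 5.81% and 6.49% of all genes tested did. The share that rose, 5.0%, was close to that of all genes. Their median was -0.21, and they were not tested against the members. Slfn1 (-1.54 ± 0.30), Ms4a4c (-0.85 ± 0.22), Sp110 (-0.61 ± 0.12) and Ifi30 (0.99 ± 0.12), a lysosomal thiol reductase that rose, had the largest differences. Mx1, at 2.48 to 2.66, was too dim to test. Of 20 genes that respond mostly to interferon gamma, 1 rose (Irgm2, 0.68 ± 0.12) and 2 fell (Cd274, -0.74 ± 0.15, and Tap2, -0.39 ± 0.12).

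By strain, averaged over cell types, BALB/c was lower in Ifngr1 (-0.89 ± 0.13), Apobec3, a cytidine deaminase that restricts retroviruses (-1.76 ± 0.11), Ifi30 (-1.19 ± 0.12), Nlrc5, the activator of class I genes (-1.11 ± 0.13), and Ifna4 (-1.43 ± 0.16). Apobec3 stood between 7.22 and 7.59 on BALB/c arrays and between 8.83 and 9.57 on B6 arrays, so the strains did not overlap. Of the receptor and JAK-STAT genes 1 of 10 tested was lower. Of the stimulated genes outside the 39, 4 of 40 were lower and 1 higher. Over all genes tested, 2.79% were lower and 1.79% higher. In gamma-delta 17 against ROR- cells Ifnar1 (-0.77 ± 0.20), Il10rb (-0.73 ± 0.15), Jak2 (-1.12 ± 0.14), Slfn1 (-3.27 ± 0.46) and Ifng (-3.54 ± 0.90) fell and Ifna4 (1.08 ± 0.25) rose. Between iNKT17 and gamma-delta 17 cells the RNA sensor Tlr7 was higher in iNKT17 cells by 1.65 ± 0.25 (adjusted p = 0.025).

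Of the 14 members that fell over both strains and have a promoter window, 7 held the ISRE core, as did 3 of 11 that did not pass and 1 of 2 that rose, and no test was made of these shares. The GAS motif occurred in 2 of 14, 4 of 11 and 1 of 2. Among the falling genes printed above, Ifit1, Ifit1bl1, Isg15, Oas3 and Ifitm2 have a match and Ifitm1 has none. The printed genes hold more matches than the rest. Of the falling genes not printed, Irf7, Ifit2, Cmpk2, Epsti1, Sp100 and Xaf1 have none. Ifih1 and Ifitm3 have matches only after the start, at 32 and at 2 and 19.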

How the data were processed

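The authors deposited 1 table of processed array values, 41345 probe sets by 12 arrays, taken as log2. They used the R package oligo, per the submitters' processing notes. Its version, the background correction, the normalization and the log base were not stated in any source used here. Array medians lay between 4.10 and 4.30, and the deposited log2 values were used unchanged. The platform annotation, which can be old, named the probe sets (23521 had 1 symbol, 1814 several and 16010 none here). Tested genes exceeded the 30th percentile of named probe sets (log2 3.45, the dim level, which is no measured background) on 2 or more arrays. A group-means model over all 12 arrays was fitted with limma 3.58.1 (lmFit and eBayes) in R 4.3.3 and tested on simulated data first. The p-values were adjusted by Benjamini and Hochberg over 16667 genes, with a threshold of 0.05. With 2 or 3 arrays a group, array number limits precision. All members are named, as are up to 4 genes past the threshold per other list and comparison, with Ifnar1, Ifnar2, Ifngr1, Ifngr2, Irf1, Mx1 and Ifng whatever their values. The members and lists were chosen with earlier results of these data known. Promoters are RefSeq's, GRCm38.p6. Alternatives covered scaling, the dim filter, the moderation of variance, array weights, a replicate block, the groups fitted, the probe sets averaged and each array left out. After the data were seen, leaving out BALB/c ROR- replicate 2 with B6 gamma-delta 17 replicate 1 was added. Protein sequences were not used here.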

Additional observations from a re-analysis of the deposited data

Results flagged for a closer look

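In the test of the iNKT17 minus ROR- difference between BALB/c and B6, Ifit1bl1 passed. Its interaction was 1.62 ± 0.21 (log2, BALB/c minus B6, limma adjusted p = 0.025, 3 and 2 arrays a group). ROR- cells stood at 3.99, 4.09 and 3.90 in BALB/c and 6.25 and 5.89 in B6. All iNKT17 arrays of both strains lay below the dim level, and only the ROR- arrays made the gene bright enough to be tested. Under the stricter dim filter it was not tested. A strain difference in iNKT17 cells cannot be sized at such levels, so the test does not show that it depends on cell type. In 8 of the settings tried, each of which left out 1 array, the adjusted p exceeded 0.05 and reached 0.15.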

How the results depend on the processing

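No member's called difference changed sign under any setting. Single members gave 6688 values on the same side of the threshold as reported, 162 that no longer passed and 53 that newly passed. Leaving out 1 array at a time, members lower in iNKT17 than ROR- cells numbered 12 to 18 over both strains (higher 1 to 2), 5 to 8 in BALB/c (higher 0 to 2) and 7 to 12 in B6 (higher 0 to 1). The test between strains gave 0 to 1 higher and 0 lower. Members lower in BALB/c numbered 2 to 3 in iNKT17 cells (higher 0 to 1), 2 to 6 in ROR- cells (higher 0 to 1) and 5 to 8 over both (higher 1). Gamma-delta 17 against ROR- cells gave 6 to 11 lower and 0 to 1 higher, and iNKT17 against gamma-delta 17 cells gave 0 either way. Members higher in iNKT17 cells numbered 1 over both strains with arrays centred on their median or with trended, robust moderation. In BALB/c they numbered 0 with centring or with only the groups compared, and 2 with the stricter dim filter or trended, robust moderation. In B6 they numbered 0 with only the groups compared or with a gene's probe sets averaged. They also numbered 0 there without BALB/c ROR- replicate 2 and gamma-delta 17 replicate 1 together. Under the stricter filter 0 passed the test between strains, since Ifit1bl1 was not tested there. In gamma-delta 17 against ROR- cells 1 member was higher, Lgals3bp, with quantile normalization, the stricter filter, trended, robust moderation or array weights. Residuals of same-numbered arrays correlated at -0.46 to 0.47 over 21 pairs, and of differently numbered arrays at -0.47 to 0.52 over 36. Residuals mirror each other in groups of 2 arrays, so these values cannot decide whether the replicate numbers pair arrays. Between strains over both cell types, 371 genes passed with the number as a block, against 764 without it. With the replicate number as a block, members higher numbered 0 in B6 for iNKT17 against ROR- cells and 0 in iNKT17 cells for BALB/c against B6, and members lower in iNKT17 than ROR- cells numbered 17 over both strains, 7 within BALB/c and 11 within B6. Centring moved the median of all genes from 0.01 to 0.12 for iNKT17 against gamma-delta 17 cells.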
